A study of Homo sapiens with 24 samples.

Results

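The genes described here encode the main heat shock chaperones of the cytosol and the mitochondrial matrix, with the transcription factor that drives many of them: HSF1, HSPA8, HSPA4, HSPH1, HSP90AA1, HSP90AB1, DNAJA1, DNAJB1, HSPD1 and HSPE1. They were taken by name from the gene groups of the 4 deposited bin tables, and 9 of the 10 had a gene group of their own among 13236. HSPE1 had none. Its bins lay in the group HSPE1-MOB4, named for a readthrough transcript, so the values of that group are given apart and are not those of HSPE1 alone. The members held 3 of the 4769 bins that the authors class as detained introns, meaning introns that remain unspliced in polyadenylated RNA held back in the nucleus.

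Chaperones bind unfolded stretches of other proteins and give them a further chance to fold. HSP70 proteins do so in cycles of ATP use that J-domain proteins start and nucleotide exchange factors reset, HSP90 proteins finish clients such as kinases and steroid receptors, and the HSPD1 and HSPE1 proteins form a closed folding chamber in mitochondria. HSF1 is held inactive by chaperones in unstressed cells, is set free when unfolded proteins occupy them, and binds arrays of the unit nGAAn in the promoters of chaperone genes.

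HEK293T, the cell line used, derives from human embryonic kidney and carries the SV40 large T antigen. The cells received fresh medium for 3 h, and then 10 µM OSMI-2, which inhibits the O-GlcNAc transferase OGT, or 5 µM TMG (Thiamet-G), which inhibits the O-GlcNAcase OGA, or DMSO, the solvent control, for 2 h or 6 h. Each drug at each time had DMSO libraries of its own, which gives 8 groups: DMSO and OSMI-2 at 2 h, DMSO and OSMI-2 at 6 h, DMSO and TMG at 2 h, and DMSO and TMG at 6 h. The tables held 3 libraries for each group, lettered a, b and c, except OSMI-2 at 6 h with 2 (a and b); the third was not analysed here. The labels do not say that the libraries came from separate cultures, so p-values measure the spread between these libraries, which may be technical. All 6 markers of HEK293T cells had a gene group, with VIM at 306 to 787 CPM (counts scaled to a library total of 1000000), KRT18 at 16.8 to 112, KRT8 at 9.33 to 70.5, INA at 7.71 to 35.5, PAX2 at 1.21 to 4.2 and NEFM at 0.3 to 2.2. Of 6 markers of other cell types only COL1A1 had a gene group, and its level (6.28 to 20.4 CPM) was above those of PAX2 and NEFM.

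Library totals ran from 39.5 M to 100.2 M counts (M, mega). The libraries of the 2 experiments differed in their dependence on GC content, and levels are not compared between experiments. DMSO 6 h library a of the OSMI-2 experiment stood apart: its slope of log2 count on GC, per 10 percentage points, was 0.371, against 0.811 to 1.15 in the 10 other libraries of that experiment. Fitted values that rest on it are given with and without it; the authors' deposited tests include it. RNA came from Trizol or column preparations, per the labels, which do not assign them to libraries, and the part of this in library a was not tested. Values are scaled to a library total, so less RNA per cell and fewer cells cannot be told apart.

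Of the 9 members with a promoter window in RefSeq (GRCh38.p14, from 250 bases before to 50 bases after a start; HSF1 is not shown), 6 held the core of a heat shock element. Elements of 3 units, GAANNTTCNNGAA or TTCNNGAANNTTC on either strand, were in 5 of them (HSPA8, HSP90AA1, HSP90AB1, HSPD1 and DNAJA1). Counted by window, they were in 5 of the 15 member windows and in 0.49% of 35116 windows of that length. HSP90AB1, HSP90AA1 and HSPD1 each had other windows that held none. Elements of 2 units, GAANNTTC or TTCNNGAA, lie inside each 3-unit element as well and were the only ones in DNAJB1. They were in 7 of the 15 member windows and in 13.5% of all windows. No such letters were found in the windows of HSPA4, HSPH1 and HSPE1. The stretches are shown because HSF1 binds such arrays, and their part in the changes below was not tested. Capitals mark the element, and a match is not a measured site.
HSPA8, chr11:123062346-123062374, minus strand, element 230 bases before the start: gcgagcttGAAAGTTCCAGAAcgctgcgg
HSPA8, chr11:123062171-123062199, minus strand, 55 bases before: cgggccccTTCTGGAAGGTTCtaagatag
HSP90AA1, chr14:102087112-102087140, minus strand, 88 bases before: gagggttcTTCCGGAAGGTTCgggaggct
HSP90AB1, chr6:44247770-44247798, plus strand, 165 bases before: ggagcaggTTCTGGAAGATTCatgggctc
HSP90AB1, chr6:44247823-44247851, plus strand, 112 bases before: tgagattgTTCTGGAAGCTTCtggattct
HSPD1, chr2:197500062-197500090, minus strand, 245 bases before: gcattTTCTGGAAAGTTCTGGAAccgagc
DNAJA1, chr9:33025064-33025093, plus strand, 198 bases before, 2 units (its 3-unit element begins 4 bases after the start): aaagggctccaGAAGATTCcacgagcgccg
DNAJB1, chr19:14518456-14518485, minus strand, 77 bases before: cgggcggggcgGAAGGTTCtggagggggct
DNAJB1, chr19:14518426-14518455, minus strand, 47 bases before: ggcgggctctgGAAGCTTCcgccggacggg

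Per kilobase of summed bins, HSPA8 was the most abundant member in DMSO cells at 2 h. In the TMG experiment its level was 1680 CPM per kb, followed by HSP90AB1 (944), HSPD1 (821), HSP90AA1 (643), DNAJA1 (387), HSPA4 (135), HSPH1 (131), HSF1 (36.2) and DNAJB1 (17.9). HSPA4 and HSPH1 are neighbours in that order that did not differ beyond the spread of their libraries. DNAJB1 had a summed length of 11063 bases, which lowers its value per kilobase. In the OSMI-2 experiment the DMSO 2 h order also began with HSPA8 (871 CPM per kb), HSP90AB1 (757) and HSPD1 (268) and ended with HSPH1 (24.2) and DNAJB1 (14.2). There HSPA8 ran from 444 to 1160 CPM per kb over 3 libraries, so its lead over HSP90AB1 was within its spread.

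**Figure D1:**
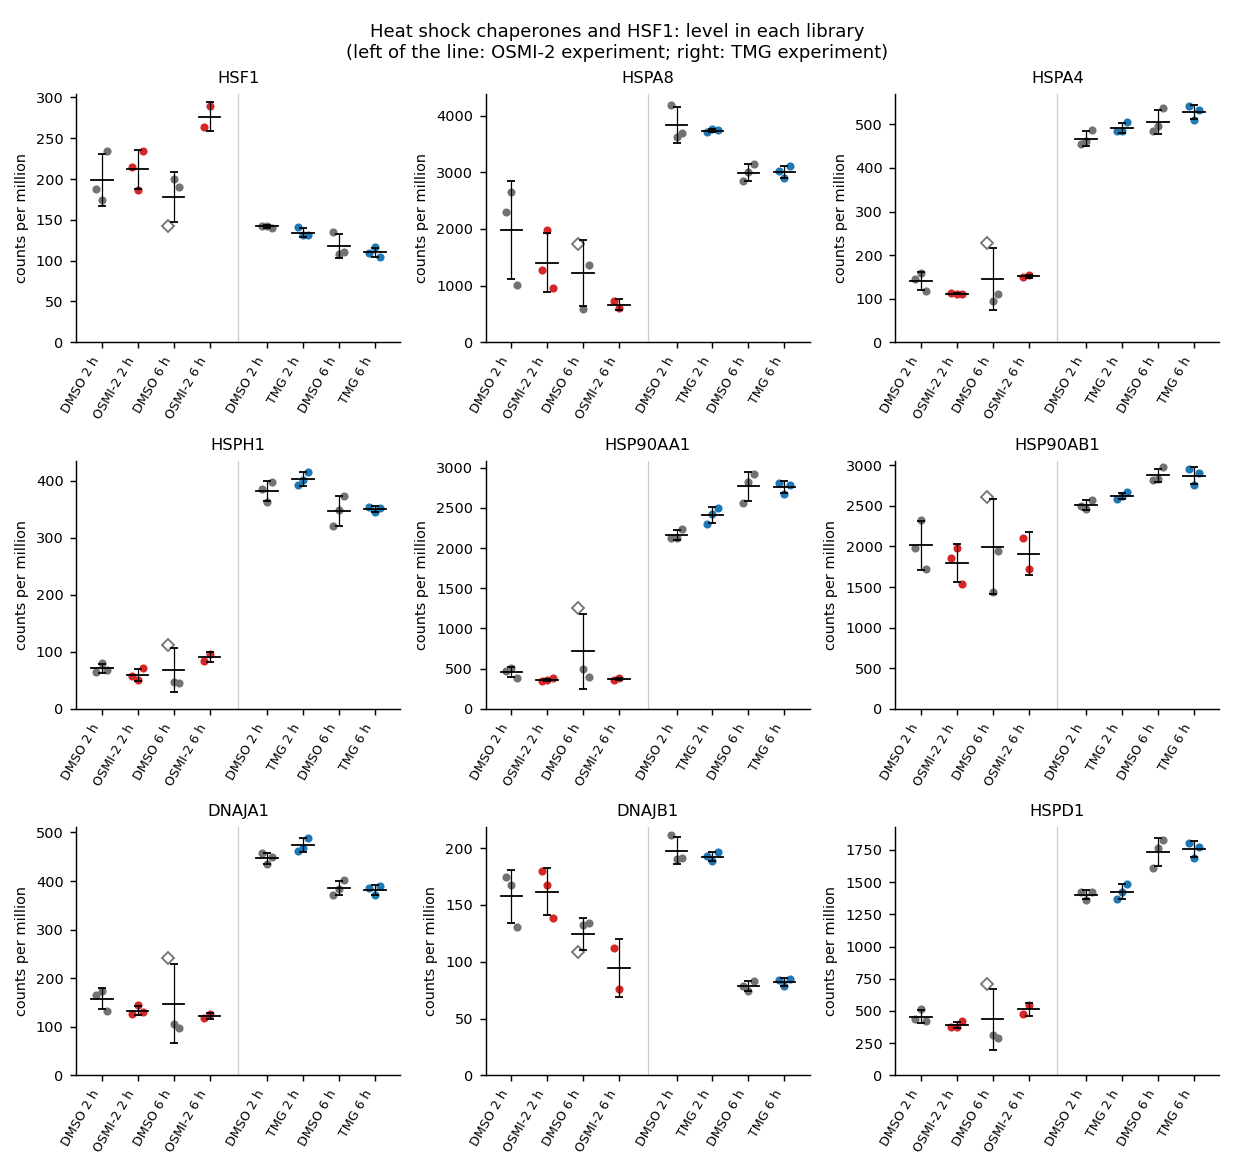
Level of each member in every library (CPM on a linear axis) by group, with the mean and SD as a bar. The open diamond is DMSO 6 h library a of the OSMI-2 experiment. HSF1 in OSMI-2 at 6 h (264 and 289 CPM) lies above its 3 DMSO libraries (143 to 201), and DNAJB1 in the TMG experiment drops from 191 to 211 CPM in DMSO at 2 h to 74.1 to 82.7 in DMSO at 6 h.

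The first question was whether the OGT inhibitor changed these genes within 2 h, and 0 of 9 members passed the threshold (a p under 0.05 in edgeR's quasi-likelihood test after Benjamini-Hochberg adjustment), where 0% of 12320 genes did. Without adjustment 2 members and 159 genes had a p under 0.05, and the DESeq2 Wald test called 0 members and 1 gene. Log2 fold changes ran from -0.48 to 0.09, with a median of -0.24 for the members and -0.01 for all genes. HSP90AA1, the stress-responsive HSP90 of the cytosol, had 476, 505 and 383 CPM with DMSO and 345, 352 and 377 with OSMI-2. Every OSMI-2 library lay below every DMSO library, at a log2 fold change of -0.34 (SE 0.14). HSPA4, an HSP110-type nucleotide exchange factor for HSP70, had 145, 159 and 118 CPM with DMSO and 114, 111 and 110 with OSMI-2. These groups were apart in CPM but overlapped after TMM scaling, at -0.33 (SE 0.14), and for both genes the edgeR adjusted p was 1.0. HSPA8, the constitutive HSP70, had 2293, 2658 and 1012 CPM with DMSO and 1277, 1974 and 952 with OSMI-2. The DMSO library at 1012 CPM was far below its others, and the OSMI-2 libraries were spread from 952 to 1974. The groups overlapped, and the difference of -0.48 had an SE of 0.36.

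At 6 h of OSMI-2, HSF1 rose and was the 1 member of 9 to pass, where 2.5% of 12486 genes passed as higher. HSF1 (chr8:145515271-145538389, plus strand, hg19) had 142.8, 200.5 and 189.9 CPM with DMSO and 264 and 289 CPM with OSMI-2. Both OSMI-2 libraries lay above all 3 DMSO libraries. The log2 fold change was 0.98 (SE 0.31; edgeR, Benjamini-Hochberg adjusted p 0.0474), or 0.83 above the median of all genes, which was 0.15. The adjusted p of HSF1 ran from 8.76e-05 to 0.891 over 14 alternatives and was under 0.05 in 5, and among the fits that leave out 1 library it passed only without DMSO library a. With the library total as the only scale the median of all genes moved to -0.24, and HSF1 was at 0.64 (adjusted p 0.134). HSF1 is the most GC-rich member (64.2% GC), and with the GC trend of each library removed it rose by 0.80 (SE 0.15).

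The HSP110 genes and the mitochondrial chaperonin gave positive differences at 6 h that missed the threshold with all libraries. HSPH1, a stress-inducible HSP110, had 112, 46.4 and 46.0 CPM with DMSO and 84.7 and 96.4 with OSMI-2. DMSO library a was the highest of the 5 and b and c the lowest, so the groups overlapped. After TMM scaling, whose factor for library a was 1.3, the values were 86.1, 43.3 and 47.0 with DMSO and 99.7 and 112 with OSMI-2 and no longer overlapped. The log2 fold change of HSPH1 was 0.84 (SE 0.30; edgeR adjusted p 0.0729). HSPD1, the HSP60 chaperonin, had 708, 309 and 291 CPM with DMSO and 474 and 549.6 with OSMI-2, at 0.66 (SE 0.33; edgeR adjusted p 0.213). HSPA4 had 227, 95.7 and 111 CPM with DMSO and 149 and 154 with OSMI-2, at 0.49 (SE 0.31; edgeR adjusted p 0.33). In each of these 3 genes library a held the highest DMSO value and the OSMI-2 libraries lay above b and c. After TMM scaling the OSMI-2 libraries of HSPD1 (557.6 and 635.7) and HSPA4 (175.1 and 178.5) also lay above library a (544.4 and 174.4), for HSPA4 only just.

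Without DMSO library a, 5 members rose: HSPH1 by 1.27 (SE 0.12), HSPD1 by 1.07 (SE 0.10), HSPA4 by 0.85 (SE 0.13), HSF1 by 0.80 (SE 0.10) and DNAJA1 by 0.58 (SE 0.10), on the log2 scale. In that fit 34.2% of all genes passed as higher and the median of all genes was 0.26, so 5 of 9 is to be read against a broad rise. With all libraries and the GC trend removed, 4 members passed as higher (HSPH1 by 1.10, HSPD1 by 0.81, HSF1 by 0.80 and HSPA4 by 0.69), where 19.8% of genes did. GC contents were 39.7% (HSPH1), 41.7% (DNAJA1), 42.0% (HSPA4), 44.8% (HSPD1) and 64.2% (HSF1) for the members that rose in either fit. They were 43.6% (HSP90AA1), 46.8% (HSPA8), 47.7% (HSP90AB1) and 55.1% (DNAJB1) for those that passed in neither. The part of GC content in which members rose was not tested.

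The abundant cytosolic members did not pass at 6 h of OSMI-2 in the main comparison. HSPA8 had 1731, 592 and 1366 CPM with DMSO and 729.7 and 600.4 with OSMI-2, at -0.49 (SE 0.37), or -0.27 (SE 0.37) without library a. The highest DMSO library was 2.92 times the lowest, and the OSMI-2 libraries lay inside that spread. HSP90AA1 had 1254, 499.5 and 399.6 CPM with DMSO and 364 and 385 with OSMI-2, at -0.49 (SE 0.35), and without DMSO library a the value was 0.04 (SE 0.11). HSP90AB1, the constitutive HSP90 of the cytosol, had 2605, 1442 and 1947 CPM with DMSO and 2101 and 1725 with OSMI-2, at 0.33 (SE 0.37). That became 0.47 (SE 0.20) without library a and -0.06 with the library total as the only scale. The J-domain genes were near the median of all genes. DNAJA1 had 241, 105 and 96.5 CPM with DMSO and 118 and 126 with OSMI-2, at 0.16 (SE 0.31), or -0.28 with the library total as the only scale. DNAJB1, a J-domain partner that HSF1 induces, had 109, 132 and 134 CPM with DMSO and 112 and 76.1 with OSMI-2, at -0.06 (SE 0.31), or -0.19 (SE 0.21) without library a. HSPE1-MOB4 had 268, 132 and 152 CPM with DMSO and 115 and 110 with OSMI-2, at -0.30 (SE 0.31), or -0.04 (SE 0.14) without library a. The groups HSPE1-MOB4 and HSPD1 lie head to head, with 81 bases between their starts on opposite strands. Processed copies of several of these genes exist in the genome, and reads that such copies share may be split between them.

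With TMG, whose target removes O-GlcNAc, no member passed at either time. At 2 h, 0 of 9 members passed where 7.91% of 12365 genes did, with 2 members at an unadjusted p under 0.05 and 0 called by the DESeq2 Wald test. Log2 fold changes lay between -0.12 (HSF1, SE 0.05; edgeR adjusted p 0.152) and 0.12 (HSP90AA1, SE 0.05; edgeR adjusted p 0.155). HSP90AA1 had 2121, 2129 and 2240 CPM with DMSO and 2306, 2431 and 2495 with TMG, and the groups did not overlap. Its adjusted p was 0.0331 with the library total as the only scale and 0.0496 with median-of-ratios factors, and otherwise missed the threshold in 13 of 15 alternatives. HSF1 had 143, 143 and 140 CPM with DMSO and 141, 131 and 131 with TMG, and the groups overlapped. After TMM scaling they were apart, at 148.5, 142.5 and 140.8 with DMSO and 138.2, 128.9 and 130.6 with TMG.

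After 6 h of TMG, 0 of 9 members passed where 6.1% of 12090 genes did, 0 had an unadjusted p under 0.05, and the DESeq2 Wald test called 0. Log2 fold changes ran from -0.10 (HSF1, SE 0.09) to 0.07 (DNAJB1, SE 0.07), and in CPM the TMG and DMSO libraries overlapped for all 9 genes. HSPA8 was at 2839, 3006 and 3144 CPM with DMSO and at 3016, 2904 and 3117 with TMG. HSPD1 was at 1610, 1762 and 1826 CPM with DMSO and at 1803, 1687 and 1776 with TMG. Standard errors of 0.06 to 0.09 make these comparisons several times more precise than those of OSMI-2 at 6 h with all libraries. Without DMSO library a, the OSMI-2 standard errors of HSPH1, HSPD1, HSPA4, HSF1, DNAJA1 and HSP90AA1 were closer to these. Those of HSPA8, HSP90AB1 and DNAJB1 stayed larger.

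**Figure D2:**
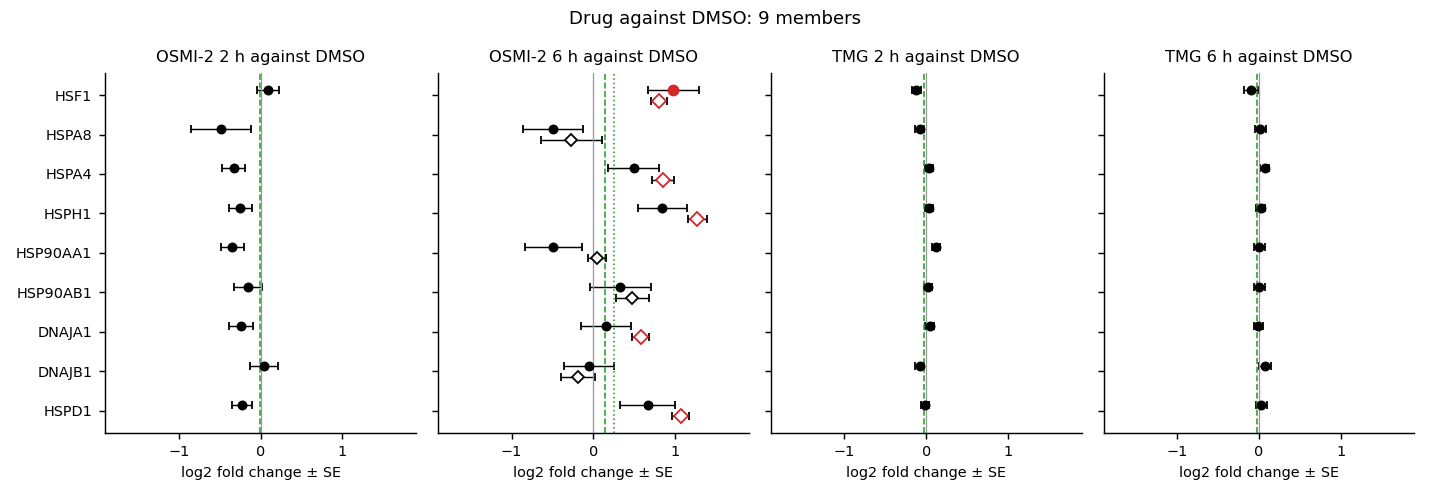
Log2 fold change of each member against DMSO (± SE) for OSMI-2 and TMG at 2 h and 6 h; red marks a change past the threshold, the open diamond at OSMI-2 6 h is the fit without DMSO library a, and the green lines are the medians of all genes (dashed with all libraries, dotted without library a). HSF1 at OSMI-2 6 h (0.98) is the 1 red point with all libraries, and the TMG values lie between -0.12 and 0.12.

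The drugs were then compared in 1 fit per time, as the effect of OSMI-2 minus the effect of TMG. At 2 h 0 of 9 members passed (edgeR), where 0% of 12538 genes did; 1 member and 1022 genes had an unadjusted p under 0.05, and DESeq2 called 0 members. At 6 h HSF1 (1.23, SE 0.29; edgeR adjusted p 0.0166) and HSPH1 (0.99, SE 0.32; edgeR adjusted p 0.0426) passed as higher, where 16.9% of 12577 genes did and the median of all genes was 0.36. The adjusted p of HSF1 ran up to 0.0945 over 15 alternatives, of which 11 passed, and that of HSPH1 up to 0.583, of which 4 passed. Leaving out any 1 of 10 libraries, all but DMSO library a of the OSMI-2 experiment, ended the call of HSPH1. Without that library HSF1 was at 1.46 (SE 0.17) and HSPH1 at 1.81 (SE 0.15), and 7 members passed as higher, but so did 72.9% of all genes, with a median of 0.88, and HSP90AA1 went from -0.33 (SE 0.37) to 0.60 (SE 0.15).

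Whether each drug's effect changed between 2 h and 6 h was tested in the same way. For OSMI-2, 0 of 9 members passed (edgeR), where 0.111% of 12588 genes did. The unadjusted p was under 0.05 for 4 members (HSPH1, 1.04; HSF1, 0.84; HSPD1, 0.83; HSPA4, 0.77) and 1845 genes, and DESeq2 called 0 members. Without DMSO 6 h library a, 5 members passed as higher, where 11% of genes did: HSPH1 (1.46), HSPD1 (1.23), HSPA4 (1.12), DNAJA1 (0.76) and HSF1 (0.65). For TMG, 0 of 9 members passed, where 0.0242% of 12402 genes did, 0 had an unadjusted p under 0.05, and DESeq2 called 0.

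The largest change in any member came between DMSO cells at 2 h and DMSO cells at 6 h, with no drug. In the TMG experiment 5 of 9 members fell, where 29.6% of 12294 genes passed as lower, and 2 rose, where 16.3% passed as higher. DNAJB1 had 211, 191 and 191 CPM at 2 h and 78.5, 74.1 and 82.7 at 6 h. Every library at 6 h lay below every library at 2 h, and the gene fell by 1.39 on the log2 scale (SE 0.08; edgeR adjusted p 1.21e-12), to 0.381 of its level. Only 1.81% of tested genes had a more negative value. HSPA8 had 4197, 3618 and 3691 CPM at 2 h and 2839, 3006 and 3144 at 6 h, and fell by 0.42 (SE 0.08; edgeR adjusted p 0.000113). Here too the times did not overlap.

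The next 3 members fell by less: HSF1 by 0.32 (SE 0.09; edgeR adjusted p 0.00377), DNAJA1 by 0.27 (SE 0.07; adjusted p 0.00248) and HSPH1 by 0.20 (SE 0.07; adjusted p 0.0269). HSPH1 did not pass without DMSO 2 h library a or c or DMSO 6 h library b (edgeR adjusted p 0.0884, 0.113 and 0.0854), or with the library total as the only scale (0.0897). DNAJA1, a J-domain partner of HSPA8, had 457, 435 and 449.8 CPM at 2 h and 372, 384 and 402 at 6 h. HSP90AA1 rose by 0.30 (SE 0.07; edgeR adjusted p 0.00136), from 2121, 2129 and 2240 CPM to 2563, 2819 and 2921. HSPD1 rose by 0.25 (SE 0.07; edgeR adjusted p 0.00594), from 1421, 1360 and 1420 CPM to 1610, 1762 and 1826, and did not pass without DMSO 2 h library b (edgeR adjusted p 0.0505). Its neighbour group HSPE1-MOB4 rose by 0.60 (SE 0.07; edgeR adjusted p 1.64e-07). HSPA4 (0.06, SE 0.07) and HSP90AB1 (0.14, SE 0.07) did not pass. DNAJB1 and HSPA8 fell while HSP90AA1 and HSPD1 rose. Each of the 4 has a promoter window with an element core shown above, in DNAJB1 only of 2 units. The part of these elements in the changes was not tested.

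GC dependence moved with time in these libraries, with slopes of -0.321 to -0.368 in DMSO at 2 h and -0.428 to -0.609 in DMSO at 6 h. With the GC trend removed, DNAJB1 (-1.31), HSPA8 (-0.49), DNAJA1 (-0.44) and HSPH1 (-0.41) fell and no member rose. In that fit 6100 genes passed in either direction, against 5641 with the trend kept, so these 4 calls are to be read against a broad change. HSF1 was then at -0.07, HSP90AA1 at 0.16 and HSPD1 at 0.13, so their calls rest on fits that keep the trend.

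In the OSMI-2 experiment 2 of 9 members fell between the DMSO times, where 13.9% of 12356 genes passed as lower. They were HSPA8, by 1.26 (SE 0.35; edgeR adjusted p 0.0125), and DNAJB1, by 0.86 (SE 0.26; edgeR adjusted p 0.0221), the members that fell most in the TMG experiment. HSPA8 went from 2293, 2658 and 1012 CPM to 1731, 592 and 1366, and DNAJB1 from 174, 168 and 131 to 109, 132 and 134. In CPM the times overlapped for both. The median of all genes was -0.25, and with the library total as the only scale it was 0.32, HSPA8 was at -0.69, DNAJB1 at -0.34 and 0 members passed. Neither gene passed without DMSO 2 h library a or b, and HSPA8 did not pass without DMSO 6 h library b (-0.94).

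Without DMSO 6 h library a, 7 members fell (all but HSP90AA1 and HSF1), where 28.8% of genes did, by 0.65 for HSP90AB1 and DNAJB1 up to 1.40 for HSPA8. With the GC trend removed, 8 fell (all but HSP90AA1), where 33.8% of genes did. The DMSO 6 h libraries are the controls of OSMI-2 at 6 h. HSPH1 in OSMI-2 cells at 6 h (84.7 and 96.4 CPM) stood above its DMSO controls b and c (46.4 and 46.0), below control a (112) and above all 3 DMSO 2 h libraries (64.5, 79.6 and 68.4). HSPD1 in OSMI-2 cells (474 and 549.6 CPM) was above controls b and c (309 and 291), below control a (708), and inside or above the range of its DMSO 2 h libraries (436, 515 and 419). HSF1 (264 and 289 CPM) was above its DMSO 2 h libraries (188, 174 and 234).

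**Figure D3:**
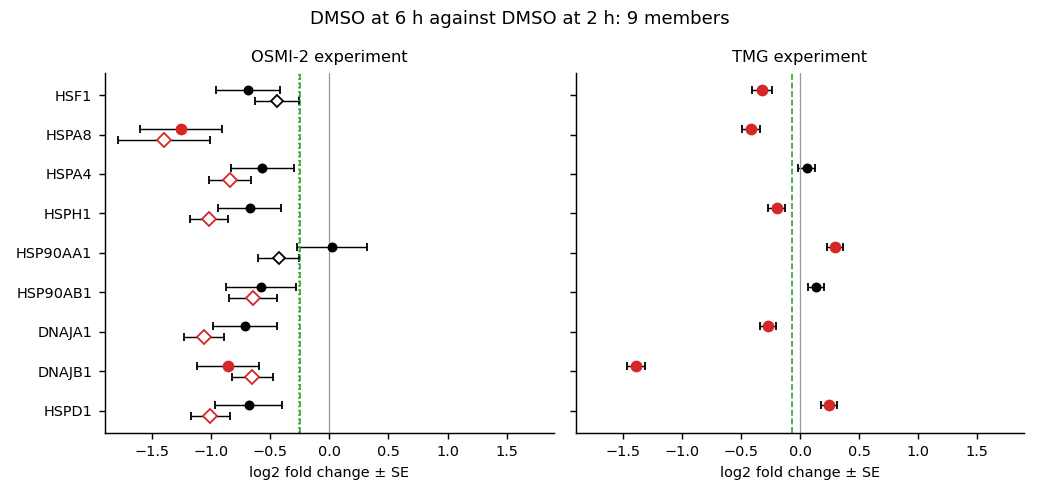
Log2 fold change of each member from DMSO at 2 h to DMSO at 6 h (± SE) in each experiment; red marks a change past the threshold, the open diamond is the fit without DMSO 6 h library a, and the green lines are the medians of all genes (dashed with all libraries, dotted without library a). DNAJB1 (-1.39) in the TMG experiment and HSPA8 (-1.26) in the OSMI-2 experiment are the lowest points with all libraries.

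HSPA4 had 2 detained introns and HSP90AB1 had 1, and all 3 fell after 6 h of OSMI-2, where 86.4% of 4684 detained introns passed as lower. HSPA4_E018 (chr5:132435345-132437450, hg19, 2106 bases) held 0.571%, 0.885% and 0.565% of the counts of HSPA4 with DMSO and 0.143% and 0.128% with OSMI-2. Its counts per library were 34 to 54 with DMSO and 12 to 17 with OSMI-2. After TMM scaling its count fell by 1.76 on the log2 scale (SE 0.44, edgeR adjusted p 0.000141). HSPA4_E020 (chr5:132438199-132439556, 1358 bases) held 0.529%, 0.845% and 0.781% with DMSO and 0.167% and 0.173% with OSMI-2, and fell by 1.5 (SE 0.42; edgeR adjusted p 0.000661). HSP90AB1_E011 (chr6:44220005-44220713, 709 bases) held 0.135%, 0.212% and 0.132% with DMSO and 0.0347% and 0.0396% with OSMI-2, and fell by 1.73 (SE 0.32; edgeR adjusted p 3.35e-07). In all 3 the share in every OSMI-2 library lay below that in every DMSO library. Without DMSO library a the changes by count were -1.54 (HSPA4_E018), -1.40 (HSPA4_E020) and -1.69 (HSP90AB1_E011).

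The median of all detained introns was -1.55 in that comparison, so these introns were near the middle of a general fall. With TMM factors from the introns alone, which centre the introns on each other, they were at -0.26 (HSP90AB1_E011), -0.28 (HSPA4_E018) and -0.03 (HSPA4_E020) and 0 passed. Relative to the counts of their gene they fell by 2.05, 2.22 and 2.00 in the same order (limma, adjusted p 1.97e-10, 5.3e-09 and 6.67e-08), where 89.2% of 4616 introns passed as lower and the median was -1.63. Without DMSO library a the relative values were -2.15, -2.32 and -2.21. The DMSO shares at 6 h were themselves higher than those of DMSO at 2 h in that experiment. HSPA4_E018 had 0.222%, 0.234% and 0.262% there and HSP90AB1_E011 had 0.0579%, 0.0606% and 0.0572%. Detained introns of all genes together took 0.756% to 1.21% of counts in DMSO at 6 h, 0.286% and 0.328% in OSMI-2 at 6 h, and 0.232% to 0.669% in all other groups, a shift whose part in these results was not tested.

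After 2 h of OSMI-2, 0 of the 3 introns passed by count (edgeR), where 0.131% of 3043 introns did, and 0 passed relative to the gene (limma), where 0.0643% of 3111 did. None had an unadjusted p under 0.05 in either test, and the authors' deposited table called 0. HSPA4_E018 was at 0.321%, 0.171% and 0.144% of its gene with OSMI-2, which spans the DMSO values.

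TMG at 2 h raised 1 of the 3, HSPA4_E018, where 9.75% of 4061 introns passed as higher. It held 0.160%, 0.165% and 0.136% of the counts of HSPA4 with DMSO (31 to 43 counts) and 0.297%, 0.313% and 0.262% with TMG (66 to 71 counts). The groups did not overlap, and after TMM scaling its count rose by 0.95 (SE 0.20, edgeR adjusted p 0.00277), above the median of 0.29 for all introns. Relative to its gene it rose by 0.90 (SE 0.20; limma adjusted p 0.00616), where 10.2% of 4031 introns passed as higher. Without TMG library a or b the relative test gave adjusted p values of 0.0592 and 0.0724, and over 8 limma alternatives they ran from 0.00514 to 0.0724. The authors' deposited table gave that intron an adjusted p of 0.000577. HSP90AB1_E011 (0.34, SE 0.16) and HSPA4_E020 (-0.16, SE 0.28) did not pass. The HSPA4 gene itself was at 0.03 (SE 0.05).

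After 6 h of TMG, 0 of the 3 passed by count (edgeR), where 0.191% of 4186 introns did, and 0 relative to the gene (limma), where 0.191% of 4181 did. None had an unadjusted p under 0.05, and the authors' deposited table called 0 of the 1 it tested. HSPA4_E018 held 0.119%, 0.191% and 0.160% with DMSO and 0.171%, 0.194% and 0.217% with TMG, and the groups overlapped.

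**Figure D4:**
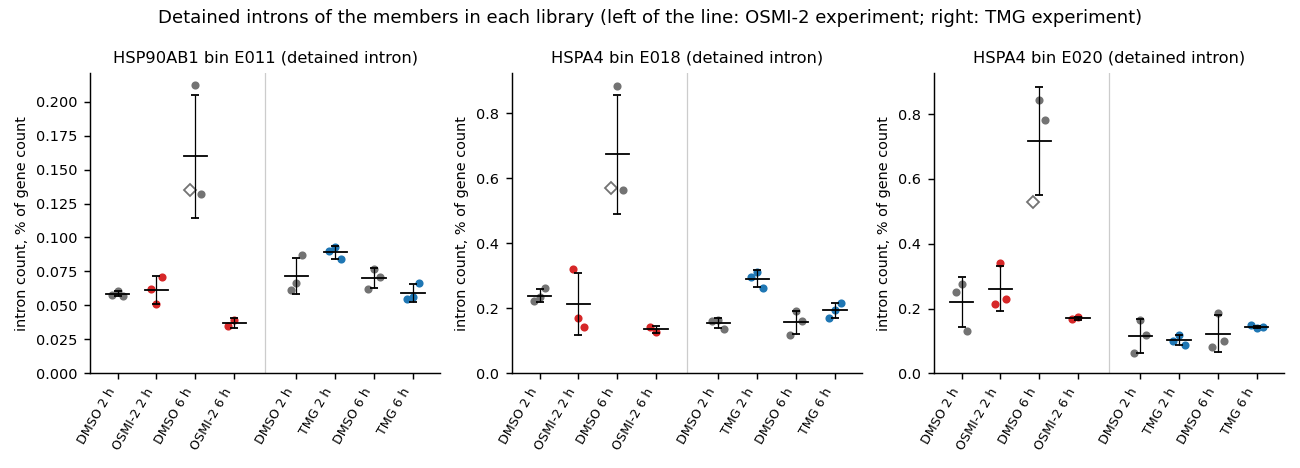
Share of the gene's counts (percent) held by each of the 3 detained introns in every library, by group, with the mean and SD as a bar; the open diamond is DMSO 6 h library a of the OSMI-2 experiment. DMSO at 6 h in the OSMI-2 experiment is the highest group for all 3 introns, and HSPA4_E018 in TMG at 2 h (0.262% to 0.313%) lies above its DMSO libraries (0.136% to 0.165%).

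Bins outside detained introns were read from the authors' deposited table, which tests the share of a gene's counts in each bin. After 6 h of OSMI-2 it called 4 of 120 member bins, where 4.08% of 147825 bins were called. HSF1_E014 (chr8:145536314-145536397, 84 bases) held 0.805%, 0.836% and 0.778% of the counts of HSF1 with DMSO and 0.519% and 0.505% with OSMI-2. It stood at -0.66 on the log2 scale in the authors' deposited table (adjusted p 0.000487), and no library of one group reached the other. HSPH1_E018 (chr13:31735613-31736117, 505 bases), the first exon bin of the gene, held 3.57%, 3.90% and 3.61% with DMSO and 4.75% and 4.46% with OSMI-2, at 0.32 in the authors' deposited table (adjusted p 0.0383). The other 2, HSPA8_E008 (0.08) and DNAJB1_E001 (-0.12), were small changes of usage in the authors' deposited table. At 2 h of OSMI-2 it called 0 of 120 member bins, where 0.00893% of all bins were called, after TMG at 2 h 0 of 117, where 0.14% were, and after TMG at 6 h 0 of 115, where 0.0565% were.

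Other genes of the pathway were read from 7 lists that hold 81 genes, of which 74 had a gene group. At 6 h of OSMI-2 4 of 73 tested passed as higher, where 2.5% of all genes did, and 0 as lower. With the library total as the only scale, or with the library letter as a replicate block, 0 of all genes passed, so these 4 calls were lost. They rest on only 2 OSMI-2 libraries, and leaving out either of these leaves that group without a replicate. HSPA1B, a stress-inducible HSP70 and a classical HSF1 target, had 245, 299 and 277 CPM with DMSO and 455 and 419 with OSMI-2, and rose by 1.03 (SE 0.32; edgeR adjusted p 0.042). HSPB1, a small heat shock protein, had 23.6, 36.3 and 36.6 CPM with DMSO and 50.6 and 55.5 with OSMI-2, and rose by 1.05 (SE 0.31; edgeR adjusted p 0.0278). In both the groups did not overlap, and without DMSO library a the values were 0.91 (SE 0.12) for HSPA1B and 0.84 (SE 0.12) for HSPB1. The other 2 were CLPP, a mitochondrial protease subunit (1.13, or 0.92 without library a), and BAG2, a nucleotide exchange factor (1.47, or 2.02 without library a). BAG2 had only 11 to 77 counts per library there, and its CPM overlapped (0.647, 0.25 and 0.203 with DMSO, 0.587 and 0.892 with OSMI-2). The near-identical copy HSPA1A can share reads with HSPA1B. The list of stress-inducible HSP70 and small heat shock proteins had a median of 1.01 over its 5 tested genes, the HSP90 co-chaperones one of 0.38 with 0 of 15 called, and the chaperonin TRiC and prefoldin one of -0.31 with 0 of 14 called, beside 0.15 for all genes. Without DMSO library a these medians were 0.84, 0.39 (8 higher and 1 lower) and 0.22 (4 higher and 2 lower), so that of TRiC and prefoldin changed sign, and with the GC trend removed it was -0.07. In all, 31 of 73 tested list genes passed as higher without library a, where 34.2% of all genes did, and 5 as lower.

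Of the inducible list, 3 of 5 tested genes fell between the DMSO times of the OSMI-2 experiment and 4 of 4 in the TMG experiment. In both they included HSPA1A, with 4 to 48 counts per library, which can share reads with HSPA1B. In the TMG experiment they also included SERPINH1, a collagen chaperone. HSPA1B went from 740, 662 and 606 CPM at 2 h to 245, 299 and 277 at 6 h in the OSMI-2 experiment, a fall of 1.82 (SE 0.28; edgeR adjusted p 8.69e-05), or 1.63 (SE 0.18) without DMSO 6 h library a. In the TMG experiment it went from 526, 524 and 517 CPM to 196, 190 and 192, a fall of 1.5 (SE 0.07; edgeR adjusted p 4.99e-14). The times did not overlap in either, and the medians of the inducible list were -1.36 (-1.08 without library a) and -1.23. Those of all genes were -0.25 (-0.26 without library a) and -0.07. Over all lists 18 of 73 tested genes fell, where 13.9% of all genes did, while 1 rose, between the DMSO times of the OSMI-2 experiment. The TMG controls had 15 that fell, where 29.6% of all genes did, and 15 rose, where 16.3% did. OSMI-2 cells at 6 h held HSPA1B at levels (455 and 419 CPM) between those of DMSO cells at 2 h and at 6 h.

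With OSMI-2 at 2 h, 0 of 73 list genes passed, as 0 of all genes did. TMG lowered 7 and raised 1 of 74 list genes at 2 h, where 7.91% of all genes passed in either direction. They included SERPINH1, a collagen chaperone (-0.37, SE 0.06) and chaperones of the endoplasmic reticulum, HYOU1 (-0.27, SE 0.05), HSPA5 (-0.25, SE 0.05) and the exchange factor SIL1 (-0.41, SE 0.06). At 6 h of TMG 3 fell and 2 rose of 72, where 6.1% of all genes passed in either direction. DNAJB5 (-0.81, SE 0.12) and SERPINH1 (-0.43, SE 0.07) fell, and HSF2, a second heat shock factor, rose by 0.25 (SE 0.07; edgeR adjusted p 0.0414).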

How the data were processed

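The authors deposited 4 tables, 1 per drug and time, with raw counts per exon or intron bin and library (164219 bins in each) in the layout of a DEXSeq result, per the file headers. The same deposited tables give an adjusted p-value and a log2 fold of bin usage by the authors, which are named as theirs where printed. Reads were aligned with STAR to hg19, per the submitters' processing notes; the counter and its use of strand are not given in the sources used here, so overlapping and near-identical genes are uncertain. Libraries were stranded and polyadenylated, per the labels' protocols. Index read counts were also deposited and not used here.

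Counts were summed per gene over bins that are not detained introns. Library size was the table total (39.5 M to 100.2 M counts) with TMM factors over genes and introns together. A read touching several bins is counted in each, so bin counts are not independent reads. Genes and introns were tested with edgeR 4.0.16 (filterByExpr, glmQLFit, glmQLFTest) in R 4.3.3, two-sided, Benjamini-Hochberg adjusted over all features, threshold 0.05; the SE is the size of the change divided by the root of F. A second test of introns, in limma 3.58.1, used the log2 ratio of intron to gene counts with 1 added to each (both means at least 10). Differences between drugs or times are interaction terms. The steps were tested on simulated data. Alternatives were DESeq2 1.42.0, other scalings and filters, a GC trend removed and the column letter as a block (both chosen after seeing the data), and each library left out. Libraries of 1 group differed beyond counting noise in all 22 pairs (chi-square over degrees of freedom 4.27 to 297).

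The members, gene lists and promoter motifs were chosen with earlier results of these data known. Named genes are the members in every comparison and, per list, up to 3 called genes with the largest change. Some are left out or given without their values, such as HSPA1A, with 4 to 48 counts per library. The bins HSF1_E014, HSPH1_E018, HSPA8_E008 and DNAJB1_E001, and the comparison of OSMI-2 6 h with DMSO 2 h levels were picked after their values were seen. Tables carried 23 of 24 libraries.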

Additional observations from a re-analysis of the deposited data

Results flagged for a closer look

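HSF1 differed between the drugs at 6 h: its log2 fold change with OSMI-2 was higher than that with TMG by 1.23 (edgeR interaction term, adjusted p 0.0166), with 2 of 2 OSMI-2 libraries above all their DMSO libraries and TMG libraries overlapping their DMSO libraries. HSPH1 differed likewise by 0.987 (edgeR adjusted p 0.0426), with its OSMI-2 and DMSO libraries apart only after TMM scaling. Both were noted because the test of the difference itself passed, where 16.9% of 12577 genes passed as higher. Over 15 alternatives HSF1 passed in 11 and HSPH1 in only 4.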

How the results depend on the processing

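The titles' replicate numbers could not be used for pairing, since the table columns carry letters instead, and no source says that a letter pairs libraries. Deviations from the group mean of libraries with the same letter correlated at -0.427 to 0.732 over genes in the 4 drug comparisons, and not every library was closest to its own letter. With the letter as a replicate block, 0 members passed at OSMI-2 6 h, where 0 genes in all did (1298 at an unadjusted p under 0.05), and no other count of called members or introns changed (0 members at OSMI-2 2 h, TMG 2 h and TMG 6 h; 0, 3, 1 and 0 introns by count and relative to the gene at OSMI-2 2 h, OSMI-2 6 h, TMG 2 h and TMG 6 h).

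With the library total as the only scale, 0 members passed at OSMI-2 6 h (1 in the report), 1 at TMG 2 h (0), 0 in the OSMI-2 minus TMG difference at 6 h (2) and 0 between the DMSO times of the OSMI-2 experiment (2). Median-of-ratios factors gave 0 at OSMI-2 6 h and 1 at TMG 2 h. At OSMI-2 6 h, TMM over genes only and no filter on low counts each gave 0, and 1 fit of all 23 libraries gave 5, with 5974 genes called in all. With the GC trend removed 4 members passed at OSMI-2 6 h (3381 genes in all) and 6 in the drug difference at 6 h (5630 genes in all). In the change of the OSMI-2 effect between times 5 passed (1805 genes in all), against 0 with all settings as in the report. Between the DMSO times 8 passed in the OSMI-2 experiment (5359 genes in all) and 4 in the TMG experiment (6100 genes in all), against 7 in the report for the TMG experiment. TMM over introns only gave 0 of the 3 introns at OSMI-2 6 h.

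Leaving out 1 library gave 0 to 5 members at OSMI-2 6 h, 0 to 7 in the drug difference at 6 h, 0 to 5 in the change of the OSMI-2 effect, 0 to 7 between the DMSO times of the OSMI-2 experiment, and 0 to 1 intron relative to its gene at TMG 2 h. The highest counts of members were without DMSO 6 h library a. HSP90AA1 reversed in the drug difference at 6 h, from -0.33 to 0.60 (adjusted p 0.00175; 0.00175 to 0.776 over 15 alternatives); its values without 1 library ran from -0.54 to 0.60. The causes were not tested. The SE of HSPH1 at OSMI-2 6 h was 0.30 with all libraries and 0.12 without DMSO library a. Intron counts as low as 8 per library limit the introns.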
